A study of Mus musculus with 41 samples.

Results

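The genes described here are 10 that encode parts of the junctions between epithelial cells or a regulator of epithelial splicing, namely Cdh1, Epcam, Cldn1, Cldn3, Cldn4, Cldn7, Cldn8, Ocln, Esrp1 and Dsp. They were chosen by name because low expression of such genes defines the claudin-low class of breast tumors, and all 10 were found among the 30175 gene names on the arrays. No tumor of the series is labelled claudin-low, so the genes were followed in the histological types that the labels give, spindle cell and epithelial tumors, and in the dietary regimens and onset groups within them.

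Epithelial cells are held to each other by tight junctions near the apical surface, by adherens junctions below them and by desmosomes anchored to keratin filaments. Claudins and occludin are membrane proteins of the tight junction, E-cadherin (Cdh1) is the adhesion molecule of the adherens junction, and desmoplakin (Dsp) links the desmosome to keratins. In an epithelial-mesenchymal transition these proteins are lost while the transcriptional repressors of the Snail, Zeb and Twist families and mesenchymal proteins such as vimentin appear, and claudin-low breast tumors are known for such a profile.

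Tumors arose in a transplant model, in which mammary duct fragments of female BALB/c Trp53-null donors, lacking the tumor suppressor p53, were placed in the cleared mammary fat pads of wild-type BALB/c females, so that the fat, vessels and other stroma of each tumor were those of a wild-type host. All recipients were fed from weaning on a low fat diet for life (LFD), a high animal fat diet for life (HFD), HFD in puberty followed by LFD (HFD-LFD) or LFD in puberty followed by HFD (LFD-HFD), and tumors were called early or late by their time of onset. RNA of each tumor was hybridized with Universal Mouse Reference RNA, a pool from 11 mouse cell lines, on 2-color Agilent arrays. The 29 epithelial tumors, whose morphology the labels give as p53 variable, comprised 8 LFD, 8 HFD, 7 HFD-LFD and 6 LFD-HFD tumors, with 14 early and 15 late, and the 12 spindle cell tumors comprised 3 of each regimen, with 3 early and 9 late.

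Values are log2 of tumor over reference signal, Cy5 over Cy3. The study's methods give Cy5 to the reference, which opposes this direction. The labels give Cy5 to the tumor. For 2 probes of Y-linked genes, absent from female tumors, the median log2 Cy5 over Cy3 was -8.08 to -3.63 on the 41 arrays. All spindle cell arrays were scanned in their own session with another software version, so histology and session cannot be told apart. Tumor signals were well above background at 52.4% to 94.9% of spots, and spots marked as outliers made up 0.472% to 22% of an array. The highest share of outliers was in the epithelial HFD tumor 60L, in which Cdh1, Cldn3, Cldn7 and Dsp were missing. The number of arrays limits the precision, and because whole tumors were profiled, fewer epithelial cells and less RNA per epithelial cell cannot be told apart.

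Tumors are named by their labels, with the prefix MSU_ left out in the plots and for most names in the text. Each gene was read from its brightest probe, which for Cdh1 lies at chr8:109193812-109193871, for Cldn8 at chr16:88561135-88561194, for Ocln at chr13:101268529-101268588 and for Esrp1 at chr4:11260208-11260267 of mm9, as the scanner files give them. Snail and Zeb factors bind the E-box CAGGTG, and Grainyhead-like factors, which activate several junction genes, bind AACCNGTT. RefSeq promoter windows of GRCm38.p6, from 250 bases before to 50 after a start site, were at hand for 7 of the 10 genes, in 9 windows. The E-box, on either strand, was in 7 of the 9 windows and in 20.2% of 32851 windows of all genes, where the overlapping 2 Ocln windows share 1 site. AACCNGTT, on either strand, was in 0 of the 9 and in 2.09% of all windows. Windows of 3 genes with 2 E-boxes each are printed up to the start site, 5′ to 3′ along the gene, with the E-box in capitals, to show where the matches stand. They begin at -187 and -19 from the start in Epcam, at -14 in Cldn4, which has a further match at 12 after the start, and at -97 and -57 in Cldn7. A match is a description of these letters only.
Epcam, chr17:87635729-87635978, plus strand: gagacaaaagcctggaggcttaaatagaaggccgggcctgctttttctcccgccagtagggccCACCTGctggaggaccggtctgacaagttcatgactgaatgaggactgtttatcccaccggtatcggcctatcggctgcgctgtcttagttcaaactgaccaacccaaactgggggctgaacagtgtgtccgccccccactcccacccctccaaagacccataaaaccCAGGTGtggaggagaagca
Cldn4, chr5:134946935-134947184, minus strand: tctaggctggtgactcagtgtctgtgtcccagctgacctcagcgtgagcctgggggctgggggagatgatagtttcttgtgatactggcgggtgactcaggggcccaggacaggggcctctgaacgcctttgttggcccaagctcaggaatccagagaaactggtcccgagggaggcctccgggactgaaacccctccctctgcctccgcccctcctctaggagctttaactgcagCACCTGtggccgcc
Cldn7, second start site, chr11:69965171-69965420, plus strand: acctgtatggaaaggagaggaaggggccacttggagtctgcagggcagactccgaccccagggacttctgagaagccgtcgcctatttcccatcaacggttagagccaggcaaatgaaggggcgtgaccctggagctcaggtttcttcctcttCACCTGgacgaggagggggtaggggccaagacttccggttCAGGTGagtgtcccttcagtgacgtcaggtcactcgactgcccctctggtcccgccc

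The first comparison was spindle cell against epithelial tumors. All 10 genes had lower means in spindle cell tumors, by 0.57 to 1.35 on the log2 scale, but the spindle cell tumors did not move as a group. Cldn8 and Ocln passed limma's test at an adjusted p under 0.05, which makes 2 of 10 genes called lower where 12.2% of all 20910 genes tested were called lower, a share near the background. At an unadjusted p under 0.05 the count was 7 of 10, against 20.4% of all genes. For each gene the test takes 1 SD for both histologies. The 10 genes varied more in the spindle cell tumors, the smaller group, with a median SD ratio of 1.86 against 0.951 over all genes. Their standard errors, intervals and p-values in this comparison are therefore likely too small, also relative to the share of all genes. The median difference over the 10 genes was -0.77, and over all genes -0.07.

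Cldn8, a claudin of tight junctions that seal against ions, ranged from -1.92 through a median of 0.34 to 1.75 in epithelial tumors and from -5.98 through -0.71 to 0.88 in spindle cell tumors. The spindle cell mean was lower by 1.35, from 0.15 ± 1.07 (SD, n = 29) to -1.19 ± 1.99 (SD, n = 12), with a limma difference of -1.35, a standard error of 0.46 and an adjusted p of 0.0342. The groups overlapped, and the reference channel of this probe itself was higher by 1.05 in the spindle cell session, a difference larger than that of 98.5% of genes. In the tumor channel alone the difference was -0.33 with an adjusted p of 0.643 in limma, so the call ended.

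Ocln, which encodes occludin, ranged from -2.22 through a median of 0.43 to 3.17 in epithelial tumors and from -3.97 through -0.60 to 1.56 in spindle cell tumors. Its limma difference was -1.16 with a standard error of 0.43. The adjusted p of 0.04995 lay at the threshold, and the call was kept in 9 of the 41 fits that left out 1 tumor. In the tumor channel alone the difference was -0.98 (limma adjusted p = 0.0721), so the call ended. The highest epithelial values, 3.17 in 60L and 2.52 in 42L4B, came with low reference signals. These were -4.66 and -3.80 on the log2 scale relative to the array's 75th percentile, against -2.40 to -1.72 on the other epithelial arrays.

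The other 8 genes did not pass. Cldn3, a sealing claudin, had a difference of -0.95 (standard error 0.36, limma adjusted p = 0.0539), with means of 1.88 ± 0.54 (SD, n = 28) and 0.93 ± 1.81 (SD, n = 12). Esrp1, a splicing factor that keeps epithelial exons, had a difference of -0.77 (standard error 0.30, limma adjusted p = 0.0635), yet its spindle cell median of 2.11 stood above the epithelial median of 1.99. Most spindle cell tumors thus had epithelial levels of Esrp1, while M63L at -2.00, M129L at -1.21, M76R at -0.16, M118R at 0.15 and M32L at 1.11 lay below the lowest epithelial value of 1.22.

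For Cdh1 the epithelial tumors ran from -0.95 through a median of 1.34 to 2.07, and the spindle cell tumors from -2.60 through 1.1 to 1.92. The 95% interval of its difference of -0.73 was -1.45 to -0.01, with a limma adjusted p of 0.142. Epcam, a surface adhesion protein that steadies claudins, Cldn1, Cldn4 and Cldn7, further claudins, and Dsp had differences of -0.77, -0.57, -0.67, -0.74 and -1.04, with limma adjusted p of 0.133 to 0.323. Leaving out M63L moved the differences of Epcam, Cldn1 and Cldn3 to -0.40, -0.27 and -0.58, and leaving out M129L moved those of Cldn4 and Cdh1 to -0.37 and -0.46. Of the 5 genes with a second probe, Cldn4 had a positive difference there, 0.24, while Cldn7, Ocln, Esrp1 and Dsp had -0.48, -1.05, -0.52 and -1.51. In the tumor channel alone 3 of the 10 genes were called lower, where 2742 of all 20910 genes were. These were Cldn3 by -1.85, Cldn7 by -1.62 and Esrp1 by -0.89. The reference signals of Cldn3 and Cldn7 were themselves lower by -0.89 and -0.87 in the spindle cell session.

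**Figure D1:**
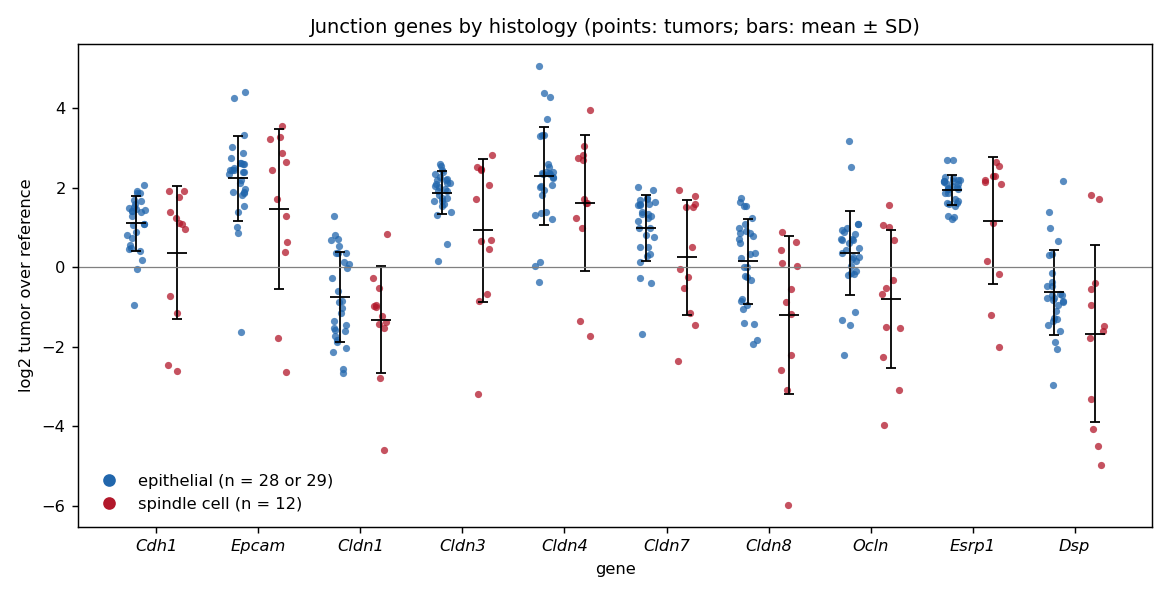
Each point is 1 tumor, the horizontal axis gives the 10 genes and the vertical axis log2 tumor over reference; bars show the mean and SD in epithelial tumors (blue, 29, or 28 where 60L was missing) and spindle cell tumors (red, 12). The 2 groups overlap for every gene, and the spindle cell points spread further down, as for Cldn8 from 0.88 to -5.98.

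The genes varied more among spindle cell tumors. The ratio of the spindle cell SD to the epithelial SD was 1.86 in the median over the 10 genes and 0.951 over all genes, and 4.07% of all genes had a ratio above 1.86. Esrp1 had the largest of the 10 ratios, 4.36, followed by Cldn3 at 3.33 and Cdh1 at 2.42. For none of the 10 did the 2 histologies separate without overlap, and 0.0909% of all genes did so.

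The values of single tumors show where the spread came from. M63L, a late HFD tumor, had the lowest mean of the 10 genes, -3.31, and lay below the lowest epithelial tumor for 10 of 10 genes, where 10.9% of all genes did so in this tumor. In M63L, Cdh1 was at -2.47, Epcam at -2.63, Cldn3 at -3.20, Cldn7 at -2.37, Esrp1 at -2.00 and Dsp at -4.49. Cldn1, Cldn4, Cldn8 and Ocln, at -4.61, -1.35, -5.98 and -3.97, were not well above background in its tumor channel, so these 4 values are imprecise.

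M129L, an early HFD-LFD tumor, had a mean of -2.17 and lay below every epithelial tumor for 8 of 10 genes, against 7.87% of all genes. Its Cdh1 of -2.60 and Dsp of -4.97 were the lowest of all tumors. Its Cldn1 of -0.94 and Cldn7 of -1.45 were within the epithelial range, so this tumor had low E-cadherin and desmoplakin beside Cldn1 near the epithelial median of -0.88.

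M76R, a late LFD-HFD tumor, had a mean of -0.91 and 5 genes below the epithelial range, against 12.1% of all genes. Cdh1 was at -1.16, Cldn1 at -2.79, Cldn8 at -2.58, Esrp1 at -0.16 and Dsp at -3.32, whereas Cldn4 was at 1.61 and Epcam at 0.39. M118R, a late HFD-LFD tumor, had a mean of -0.54 and 2 genes below that range, against 5.82% of all genes, namely Esrp1 at 0.15 and Dsp at -4.08. In both tumors desmoplakin was low while Epcam, Cldn3 and Cldn4 were above 0, though below their epithelial medians of 2.40, 1.99 and 2.35.

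M33R, a late LFD tumor, had 3 genes below the range (background 7.39%) and M32L, also late LFD, had 1 (background 4.23%). M33R combined a low Ocln of -2.27, Cldn8 of -2.20 and Cldn3 of -0.67 with a Dsp of 1.81 and an Epcam of 3.28. M84R, M18L, M128L, M56LA, M54R and M86R had 0 genes below the range, with backgrounds of 7.38%, 6.05%, 3.65%, 4.16%, 4.74% and 5.48%. Their means were 0.68, 1.06, 1.11, 1.23, 1.28 and 1.63, beside an epithelial median of 1.02. Values below every epithelial tumor for most of the 10 genes were thus seen in M63L and M129L, and not in the spindle cell tumors as a group. M76R and M118R, with means of -0.91 and -0.54, also lay below the lowest epithelial mean of -0.33. In both, each of the 10 genes was below its epithelial median. The lower end of the epithelial range can rest on 1 tumor, as for Epcam at -1.62 in 13L. The second probes, at hand for 5 genes, placed M63L below the epithelial range for Cldn4 and Esrp1 but within it for Cldn7 (-0.12, lowest epithelial value -0.33), Ocln (-2.10, lowest -2.58) and Dsp (-1.89, lowest -2.41). By the same probes M129L lay below the range for Cldn4, Ocln, Esrp1 and Dsp and within it for Cldn7 (0.27). The second probes of Cldn7, Ocln and Dsp were dimmer, with mean log2 signals of 5.19, 5.63 and 6.65. The probes used had 13, 8.52 and 12.7. For Cldn7 the r between both probes was 0.684.

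**Figure D2:**
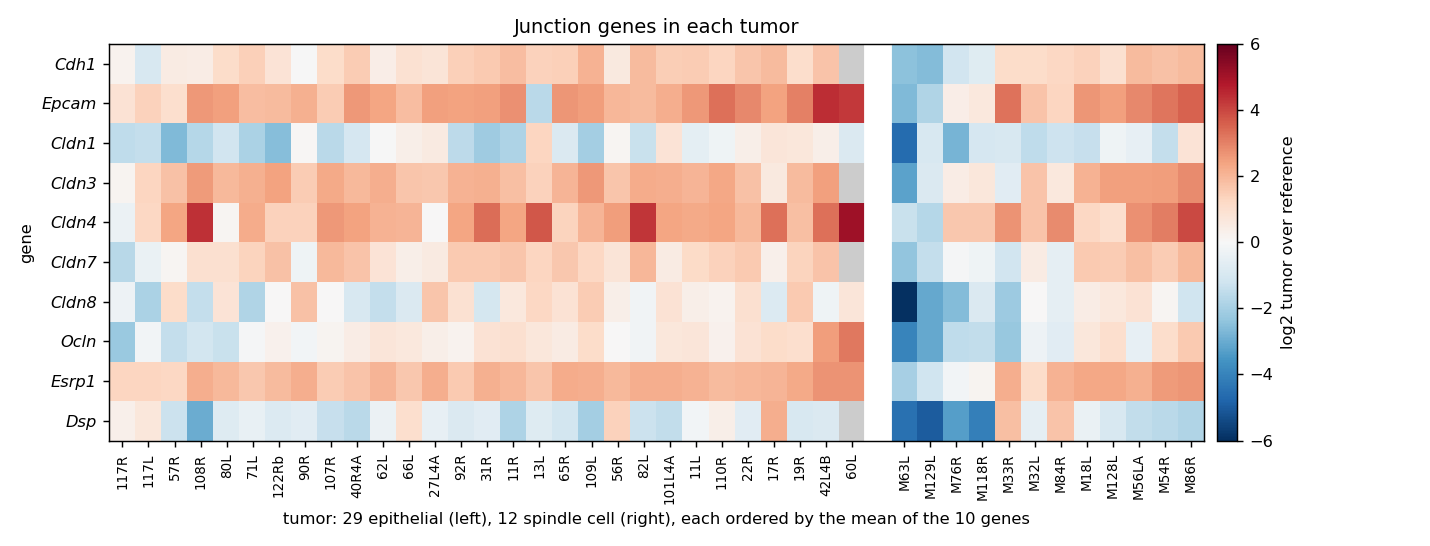
Each column is 1 tumor and each row 1 gene; color gives log2 tumor over reference from blue (below 0) to red (above 0), grey marks missing spots, and tumors are ordered within each histology by the mean of the 10 genes. The leftmost spindle cell tumors M63L (mean -3.31) and M129L (mean -2.17) are blue throughout, whereas M86R (mean 1.63) resembles the epithelial tumors on the left.

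Low and high spindle cell tumors shared slides. On 1 slide the means of the 10 genes ran from -0.91 in M76R to 1.23 in M56LA, on another from -2.17 in M129L to 1.11 in M128L, and on the third from -3.31 in M63L to 1.63 in M86R.

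Among epithelial tumors the mean of the 10 genes was 0.98 ± 0.51 (SD, n = 29), from -0.33 in MSU_117R through a median of 1.02 to 2.51 in 60L, which rests on 6 genes. The lowest tumors were MSU_117R and MSU_117L (0.10), both early HFD-LFD and with the same label number, and 57R (0.27), a late HFD tumor. In MSU_117R, Ocln was at -2.22 and Cldn7 at -1.68, the lowest epithelial values of these genes, and in MSU_117L Cdh1 was at -0.95. Whether tumors with the same number came from 1 mouse is not stated in the labels.

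The genes were loosely tied to each other among epithelial tumors and tightly among spindle cell tumors, given here as descriptions over tumors that share slides and depth. Over the 45 pairs of genes Pearson's r had a median of 0.29 (-0.62 to 0.74) in epithelial tumors and of 0.78 (0.29 to 0.97) in spindle cell tumors. Without M63L and M129L the spindle cell median was 0.52 (-0.28 to 0.97). Against the mean of the other 9, Ocln had an r of 0.83 and Esrp1 of 0.76 in epithelial tumors, while Cldn8 had 0.08 and Dsp -0.24. The epithelial correlations include 60L and 42L4B, which were scanned in a session of their own with low reference signals of Ocln and Cldn4. Both tumors had the highest epithelial values of Ocln (3.17 and 2.52) and of Esrp1 (2.69 each). The part of this pair in the correlations was not tested.

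Of 20492 genes whose tumor signal was well above background on at least 50% of epithelial arrays, Marveld2, which encodes tricellulin, the tight junction protein of corners where several cells meet, followed the mean of the 10 genes most closely over the 29 epithelial tumors. Its r was 0.84, 0.76 without the 2 tumors farthest from the median (60L and MSU_117R) and 0.91 over the 12 spindle cell tumors. The next were a transcript known by the probe name A_55_P2169539 (0.84), Thnsl1 (0.83), ENSMUST00000091905 (0.83), Aktip (0.80), 1110008L16Rik (0.80), Tha1 (0.79) and Ccdc43 (0.79), and the lowest were Car14 (-0.83), Ankrd34a (-0.81) and Fam118a (-0.81). Without the same 2 tumors the r of these 7 ran from 0.62 to 0.71, and of the lowest 3 from -0.67 to -0.63.

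Other junction genes were counted in lists chosen by function. Of 20 other tight junction genes 7 were called lower and 0 higher in spindle cell tumors in limma, with a median difference of -0.87, which was -0.31 after normexp and loess and -0.42 with the authors' matrix. Marveld3, a relative of occludin, fell by 1.72 (standard error 0.46, adjusted p = 0.00738), Inadl, a scaffold of the tight junction, by 1.45 (standard error 0.34, adjusted p = 0.00245) and Pard6b, a polarity protein, by 1.37 (standard error 0.36, adjusted p = 0.00657). The Pard6b difference was -0.38 after normexp and loess (adjusted p = 0.0684) and -0.33 with the authors' matrix (adjusted p = 0.301). Cgn, Marveld2, Tjp3 and Lsr fell as well, by 1.22, 1.19, 1.13 and 1.08.

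Of 10 adherens junction genes 1 was called, Vcl, which encodes the actin linker vinculin and rose by 0.72 (limma adjusted p = 0.0168), and the catenins Ctnna1, Ctnnb1 and Ctnnd1 had differences of -0.16, -0.20 and -0.16. Of 10 desmosome genes Dsg2, a desmosomal cadherin, fell by 1.21 (limma adjusted p = 0.00644), and its difference was -0.73 in the tumor channel alone (adjusted p = 0.143). Dsc3, another desmosomal cadherin, rose by 3.0 (adjusted p = 9.89e-06), on the 7 of 12 spindle cell arrays whose spot was not marked as an outlier. After normexp and loess the Dsc3 difference was 1.55 (adjusted p = 0.000205). The adherens junction and desmosome lists had median differences of -0.13 and -0.50, and with the authors' matrix they were 0.03 and -0.24.

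Of 12 regulators of the epithelial state 2 were called lower, a share near the 12.2% of all genes, Grhl2, a Grainyhead-like factor, by -1.29 (limma adjusted p = 0.0114) and Ehf, an epithelial Ets factor, by -1.11 (limma adjusted p = 0.0227). All 12 had negative differences, with a median of -0.72, and in late tumors alone 0 were called. Grhl2 ranged from 2.21 through a median of 2.92 to 3.96 in epithelial tumors. It was at -2.98 in M63L, -0.68 in M129L, 0.21 in M76R, 1.01 in M118R and 1.93 in M32L, all below that range, and at least 2.80 in the other 7 spindle cell tumors.

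Of all genes 7.92% were called higher in spindle cell tumors. Of 8 transcription factors of the epithelial-mesenchymal transition 3 were called higher, Twist2 by 1.72 (limma adjusted p = 0.001), Snai1 by 1.33 (limma adjusted p = 0.00514) and Zeb1 by 0.87 (limma adjusted p = 0.0317). Zeb1 ranged from -3.26 through a median of -1.75 to -0.07 in epithelial tumors. It was at 1.1 in M129L, 0.80 in M63L, 0.72 in M118R and 0.36 in M76R, above every epithelial tumor, and from -2.48 to -0.44 in the other 8 spindle cell tumors. Snai1 was at 2.61 in M63L, 2.21 in M118R, 2.06 in M129L and 1.79 in M84R, above the highest epithelial value of 1.74, but at 0.40 in M76R.

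Of 10 mesenchymal genes 5 were called higher, led by Mmp2, a matrix protease, by 1.41 (limma adjusted p = 0.000201), Vim, which encodes vimentin, by 1.19 (limma adjusted p = 0.00482), and Sparc, a matrix protein, by 1.11 (limma adjusted p = 0.00328). In late tumors alone 1 of the 10 mesenchymal genes was called. Vim reached -0.09 at most in epithelial tumors and was at 1.59 in M63L, 1.43 in M118R, 0.51 in M76R and 0.44 in M129L. In the other 8 spindle cell tumors it ran from -2.94 to -0.13. The 4 tumors with the lowest means of the 10 junction genes were thus the same 4 that stood above all epithelial tumors in Zeb1 and Vim. Means of the whole lists did not set the same 4 apart. The mesenchymal mean was 0.51 in M129L, 0.41 in M76R and 0.09 in M118R. It was -0.13 in M63L, below the highest epithelial value of 0.04. The mean of the transcription factors was 0.64 in M63L, 0.32 in M118R, 0.18 in M129L and 0.14 in M84R. It was -0.21 in M76R, below the highest epithelial value of 0.03. No test was made of these 4 tumors, which were picked by their values.

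**Figure D3:**
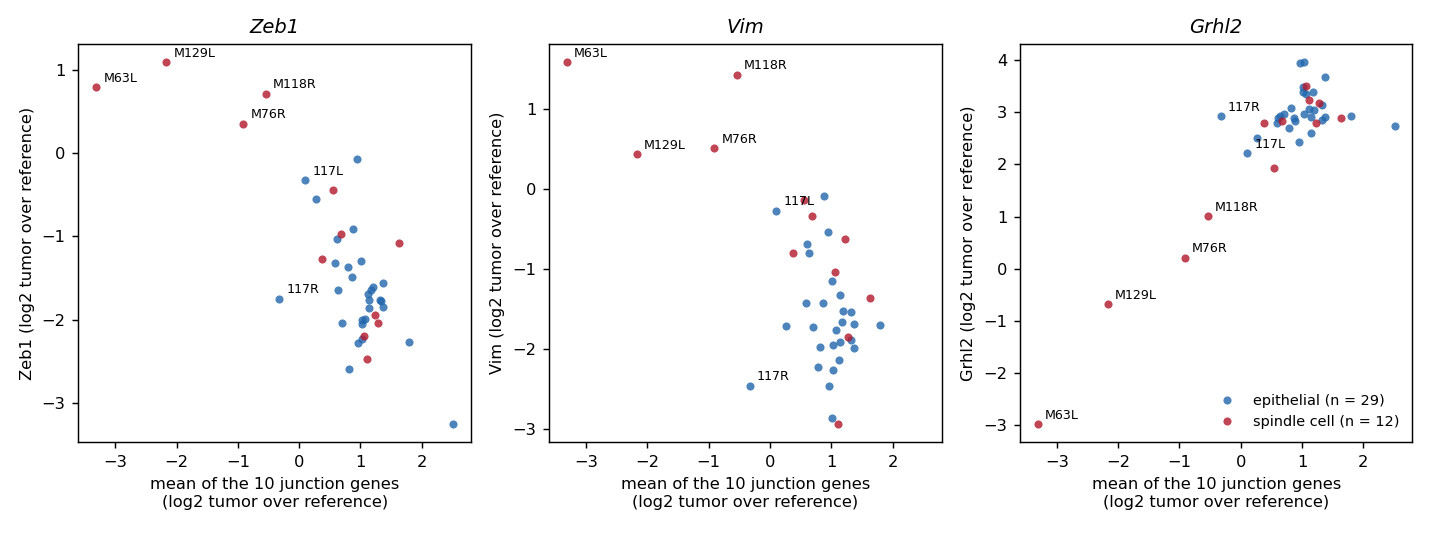
Each point is 1 tumor, with the mean of the 10 junction genes on the horizontal axis and Zeb1, Vim or Grhl2 on the vertical axes, all as log2 tumor over reference; epithelial tumors are blue and spindle cell tumors red, and 60L has no Vim value. M63L, M129L, M76R and M118R stand apart from the other tumors with a mean below -0.5, Zeb1 above 0.3 and Grhl2 from -2.98 to 1.01.

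Keratins also differed among these tumors, in genes chosen after their values were seen. Of the 7 keratins 0 were called in limma, with a median difference of -0.41, and 1 was called lower with the authors' matrix (median -0.91) and 2 in the tumor channel alone (median -0.95). M63L had the luminal keratins Krt8 and Krt18 at 2.48 and 2.72, beside epithelial medians of 2.24 and 2.78, although the mean of its 10 junction genes was the lowest of all. M129L had them at -1.21 and -1.12, below the lowest epithelial values of 0.16 and 0.57. The basal keratins Krt5 and Krt14 were highest in M33R (2.67 and 3.87) and M84R (2.34 and 3.27), the 2 spindle cell tumors with Dsp above 1.

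Markers of other cells moved with histology too. Of 8 fibroblast markers 4 were called higher in spindle cell tumors, with Col1a1 and Col1a2 each by 1.22 and Col3a1 by 1.20, and the mean of the list spanned -3.81 to -0.40 (epithelial) and -3.18 to 0.48 (spindle cell). Of 8 endothelial markers 5 were called higher, with Tie1 by 1.13, Cldn5, an endothelial claudin, by 1.0 and Pecam1 by 0.87, and its mean spanned -2.09 to 0.45 and -1.27 to 1.17. In the tumor channel alone the difference was 0.55 for Tie1 (limma adjusted p = 0.0197) and 0.98 for Pecam1, and Cldn5 lost its call (0.42, limma adjusted p = 0.34). Of 9 leukocyte markers 1 was called lower, Cd8a by -1.39, with list means of -0.53 to 2.12 and -0.57 to 1.71. The Cd8a difference was -0.69 after normexp and loess, and its call ended in the tumor channel alone (-1.07, limma adjusted p = 0.106). The fibroblast count was 1 in late tumors alone and 1 without 5 arrays of compressed or dim signal (42L4B, 60L, M32L, M76R and M86R). The part of these markers in the junction gene values was not tested.

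Of 8 cornified epithelium markers tested, 1 was called higher, Krt10 by 0.49, with list means of -5.28 to -1.11 (epithelial) and -5.32 to -0.89 (spindle cell). Of 8 skeletal muscle markers 1 was called lower, Mylpf by -0.58, which was well above background on 19 arrays, with list means from -5.66 to -2.62 and from -5.72 to -3.43. In the tumor channel alone both calls ended, with differences of 0.04 for Krt10 and -0.31 for Mylpf, and after normexp and loess that of Mylpf ended (-0.27, limma adjusted p = 0.494). Of 7 adipocyte markers tested 0 were called, with list means from -5.38 to -0.16 and from -5.37 to 3.59. Without the same 5 arrays 6 adipocyte and 5 muscle markers were called lower, where 3449 of 20909 genes were. The adipocyte mean was 3.59 in M76R and 1.96 in M32L, above every epithelial tumor, and -4.09 in M63L and -5.06 in M129L, where adipocyte signal was thus low. M76R also had the highest spindle cell means of the endothelial and fibroblast lists, 1.17 and 0.48, and the part of this in its junction gene values was not tested.

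The next question was whether the dietary regimens differed. In epithelial tumors 0 of the 10 genes passed limma's F-test over the 4 regimens at an adjusted p under 0.10, which 0.473% of all genes passed. At an unadjusted p under 0.05 the count was again 0 of 10, against 13% of all genes. The mean of the 10 genes was 1.16 ± 0.17 (SD, n = 8) with LFD, 1.19 ± 0.68 (SD, n = 8) with HFD, 0.62 ± 0.57 (SD, n = 7) with HFD-LFD and 0.90 ± 0.25 (SD, n = 6) with LFD-HFD. The LFD tumors lay between 0.96 and 1.37, and every other regimen overlapped them. The HFD tumors 42L4B and 60L, at 1.80 and 2.51, shared a slide and a scanning session of their own, in which the reference signal of Ocln was -4.66 and -3.80 on the log2 scale relative to the array's 75th percentile, against -2.40 to -1.72 on the other epithelial arrays. Without this pair, a choice made after seeing the data, the HFD mean was 0.86 ± 0.31 (SD, n = 6).

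HFD-LFD against LFD had the largest single differences, with 0 of 10 genes passing and 1.25% of all genes. No slide held epithelial LFD tumors together with another regimen, so that in each contrast with LFD a difference between slides cannot be told apart from one between regimens. Cldn1 ran from -2.57 to -0.26 in HFD-LFD tumors, with a mean of -1.60 ± 0.70 (SD, n = 7), and from -2.14 to 1.28 in LFD tumors, with a mean of -0.12 ± 1.27 (SD, n = 8). The limma difference was -1.48 with a standard error of 0.51 and an adjusted p of 0.192. Ocln and Cdh1 had differences of -1.06 (limma adjusted p = 0.33) and -0.77 (limma adjusted p = 0.305). Against LFD, HFD and LFD-HFD gave 0 genes of the 10 and 0% of all genes.

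In the 12 spindle cell tumors, 3 per regimen, 0 of the 10 genes and 0% of all genes passed limma's F-test, and at an unadjusted p under 0.05 the counts were 0 of 10 and 3.74% of all genes. The means of the 10 genes were 0.67 ± 0.35 (SD, n = 3) with LFD, -0.26 ± 2.64 (SD, n = 3) with HFD, -0.53 ± 1.64 (SD, n = 3) with HFD-LFD and 0.47 ± 1.28 (SD, n = 3) with LFD-HFD. M63L was an HFD tumor, M129L and M118R were HFD-LFD tumors and M76R was an LFD-HFD tumor. The 3 LFD tumors, at 0.38, 0.55 and 1.06, lay within the range of the other regimens.

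**Figure D4:**
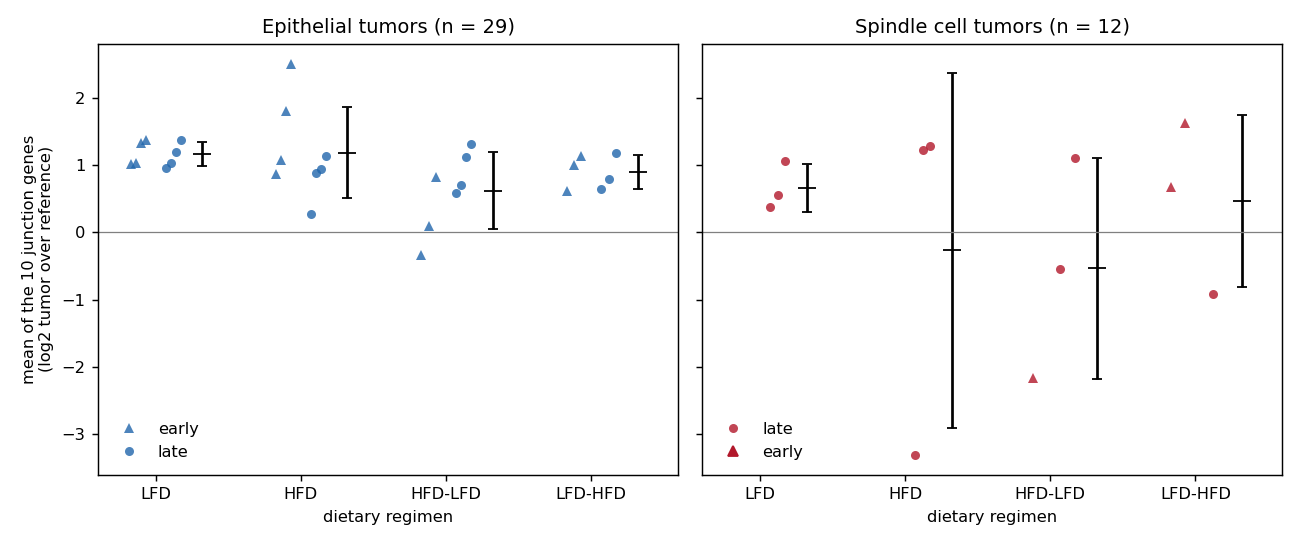
Each point is the mean log2 tumor over reference of the 10 genes in 1 tumor, by dietary regimen, for epithelial (left, 29) and spindle cell (right, 12) tumors; triangles are early and circles late tumors, and bars give the mean and SD of each regimen. The regimens overlap in both panels, and the HFD bar of the spindle cell panel spans -0.26 ± 2.64 because M63L stands at -3.31.

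Tumors of mice fed HFD in puberty (21, HFD and HFD-LFD) were compared with the rest (20, LFD and LFD-HFD). In limma 0 of the 10 genes and 0.00956% of all genes passed, and 1 of the 10, Cdh1, had an unadjusted p under 0.05, against 6.95% of all genes, while all 10 differences were negative, from -0.74 for Dsp to -0.04 for Cldn3, with a median of -0.38 against -0.02 over all genes. Cdh1 ran from -2.60 through a median of 0.85 to 2.07 with pubertal HFD and from -1.16 through 1.41 to 1.92 without. Its difference was -0.69, with a 95% interval of -1.35 to -0.03, a p of 0.0404 and a limma adjusted p of 0.702. In epithelial tumors alone 4 of the 10 differences turned positive, at 0.21 for Epcam, 0.15 for Cldn3, 0.05 for Cldn4 and 0.02 for Dsp. Within the 4 slides that held both diets, the median difference over the 10 genes was 0.07, 1.18, -1.76 and -2.03.

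Dsp had the largest interaction of pubertal diet with histology among the 10 genes, -2.53 (standard error 0.90, limma adjusted p = 0.252), where 0 of the 10 genes and 0.445% of all genes passed. After normexp and loess it was -2.68 with a limma adjusted p of 0.0565, past the threshold of 0.10. It was the only 1 of the 10 with an unadjusted p under 0.05, against 12.2% of all genes. In spindle cell tumors Dsp ran from -4.97 through -2.84 to -0.94 with pubertal HFD and from -3.32 through -0.47 to 1.81 without, a difference of -2.51 (limma adjusted p = 0.472). In epithelial tumors the difference was 0.02 (limma adjusted p = 0.993), and the values overlapped in both histologies.

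Early and late epithelial tumors (14 and 15) showed no difference past the test in any of the 10 genes, with 0 of 10 and 0.143% of all genes passing in limma, and 0 of 10 and 13.2% at an unadjusted p under 0.05. The differences ran from -0.47 for Cldn1 to 0.48 for Epcam, and 7 of 10 were positive. The widest 95% interval, for Cldn4, was -0.73 to 1.08, and the narrowest, for Esrp1, -0.28 to 0.30. Within the 3 slides that held both, the median difference was -0.07, 0.01 and 0.43. The interaction of onset with histology passed for 0 of 10 genes and 0.00478% of all genes, and at an unadjusted p under 0.05 for 0 of 10 and 3.01%. It rests on 3 early spindle cell tumors, M129L, M84R and M86R, whose means of the 10 genes were -2.17, 0.68 and 1.63.

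Scanner files and the deposited matrix of processed ratios disagree on the names of 3 epithelial HFD tumors that shared a slide. By their values across probes, the matrix's 40R4A is the scanner file's 57R (r = 0.985), its 57R is 65R (r = 0.981) and its 65R is 40R4A (r = 0.979). Here each tumor keeps the name of its scanner file. With the names of the matrix, the onset differences of Ocln and Esrp1 were -0.02 and -0.13, in place of 0.25 and 0.01.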

How the data were processed

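Each of 41 tumors was profiled on a 2-color Agilent array. The authors deposited scanner files, whose intensity values are the processed signals of both dyes after the scanner software's background and dye correction, and a matrix of log2 ratios, Lowess normalized, filtered and imputed by them. Agilent Feature Extraction 11.0.1.1 and 10.5.1.1 are named in the file headers and 8.5.1.1 in the submitters' processing notes. Direction, centring and scale of the matrix were checked against the scanner files, which its columns matched in sign, with medians near 0.

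Ratios were log2 of Cy5 over Cy3 processed signal, with outlier spots (1.19% of values) left missing. Probes with both signals over 10 on at least 80% of arrays were kept, 27304 of 39429, and each of 20910 genes was represented by its brightest probe. Groups came from the labels. Differences were tested over all genes with limma 3.58.1 in R 4.3.3 (lmFit, eBayes, Benjamini-Hochberg), in place of the study's SAM, at an adjusted p under 0.05 for histology and 0.10 otherwise, and the fits were tested on simulated data. Genes named are the 10, up to 3 called per list and direction with the largest difference between histologies, and the 8 most and 3 least like the 10 genes' mean over epithelial tumors. Cgn, Tjp3, Lsr, the catenins and the keratins other than Krt10 were named after their values were seen. The 10 genes and 13 lists were chosen with earlier results of these data known. Alternatives changed background correction with normexp (offset 50) and loess, centring, filter, probes, outliers, slide, covariates and tumors, or used the matrix. Protein sequences were not used here. Where labels do not say that tumors came from separate mice, p-values measure the spread between tumors.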

Additional observations from a re-analysis of the deposited data

Results flagged for a closer look

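Of 40 sets examined (10 genes in the epithelial tumors of 4 regimens, with 6 to 8 tumors each), 4 held a tumor far from the others, and chance marks about 5% of such sets. Epcam was at -1.62 in the late LFD tumor 13L, where the nearest of the other LFD tumors was at 2.40. In the early LFD tumor 17R, Cldn3 was at 0.59, with the nearest at 1.40, and Dsp was at 2.17, with the nearest at -0.15. Cldn1 was at -2.66 in the late HFD tumor 57R, 1 of the 3 tumors whose labels differ between the scanner files and the matrix, and the nearest HFD tumor was at -1.02.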

How the results depend on the processing

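All 10 differences between spindle cell and epithelial tumors stayed negative in every other fit of all genes, Cldn4 being positive (0.24) by its second probe alone, but the number of genes called did not hold. It was 2, and 1 with centred arrays, the filter on signal well above background or the mean over probes. It was 0 with the authors' matrix, slide as a random block or late tumors only. It was 3 with no filter or in the tumor channel alone, 5 with 1 tumor per label number. Without single tumors it was 0 to 4 (0 without M129L, M63L or M76R, 4 without M128L, M18L, M54R or M86R). Cldn8 lost its call with the matrix (limma adjusted p = 0.0552), the slide block (0.0905), without the 5 arrays of 42L4B, 60L, M32L, M76R and M86R (0.0607), in the tumor channel alone (0.643), in late tumors (0.166) and without M129L (0.078), M33R (0.0635), M63L (0.11) or M76R (0.0637), and Cldn3 gained a call in 7 settings (adjusted p from 0.00256 to 0.0479) and without any 1 of 8 tumors. Ocln lost its call after normexp and loess (limma adjusted p = 0.068), with centred arrays (0.0529), the background filter (0.0502) and the mean over probes (0.0587). Its call also ended with outlier spots kept (0.0519), the matrix (0.0594), the slide block (0.104) and regimen and onset as covariates (0.0766). The same held in the tumor channel alone (0.0721) and in late tumors (0.14). With the slide block, which left the differences nearly as they were (Marveld2 -1.20, Zeb1 0.88), calls were lost by Marveld2 (0.0583), Lsr (0.0869), Vcl (0.0557), Ehf (0.0692), Zeb1 (0.079), Cldn5 (0.0619), Krt10 (0.0998) and Cd8a (0.0877). Zeb1 (0.124), Cldn5 (0.0713), Krt10 (0.166) and the collagens Col1a1, Col1a2 and Col3a1 (0.0692, 0.0611 and 0.138) lost theirs without the 5 arrays. In late tumors Zeb1 (0.336), Grhl2 (0.0994), Ehf (0.119), Vim (0.0685), Sparc (0.0978), Cldn5 (0.194), Krt10 (0.273), Cd8a (0.0705) and Mylpf (0.0579) missed the threshold, as did Marveld3, Inadl, Marveld2, Lsr, Vcl, Dsg2 and the 3 collagens. The interaction of pubertal diet with histology had 1 gene called after normexp and loess, Dsp. The other comparisons kept 0 of 10 genes under every alternative, and the cause of these changes was not tested.

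Small differences changed sign. With pubertal HFD these were, in epithelial tumors only, Epcam 0.21, Cldn3 0.15, Cldn4 0.05 and Dsp 0.02, and with slide as a fixed block, chosen after seeing the data, Cldn1 0.03; single tumors moved Cldn3 from -0.16 to 0.21. For onset they were Cldn3 0.21, Cldn8 0.31, Ocln -0.12 and Dsp -1.04 with that block, Dsp -0.13 with slide as a random block, Cldn4 -0.12, Ocln -0.15 and Esrp1 -0.11 without the 5 arrays, Cldn7 -0.02, Ocln -0.12 and Esrp1 -0.08 with the matrix, Ocln -0.02 and Esrp1 -0.13 under its labels, and Esrp1 -0.04 centred and -0.01 with regimen as a covariate; single tumors moved Cldn4 from -0.03 to 0.39, Esrp1 from -0.05 to 0.06 and Dsp from -0.19 to 0.18. For the interaction they were Cldn1 -0.13 after normexp and loess and -0.25 with the matrix, Cldn7 0.16 with the mean over probes, Cldn7 0.45 and Ocln 0.06 without the 5 arrays, and Cldn8 -0.21 with 1 tumor per label number; single tumors moved Cldn3 from -1.01 to 0.14, Cldn7 from -0.36 to 0.48 and Cldn8 from -0.19 to 1.18.

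Of the 20 other tight junction genes 3 were called lower in late tumors alone and 5 with the slide block, in place of 7. Counts over all genes also moved. Histology had 4218 calls, 7892 without the filter, 2550 with the slide block and 2348 in late tumors. Epithelial regimens had 99, 200 with the matrix, 166 without the 5 arrays, 10 with 1 tumor per label number, 0 with the slide block and 15 to 193 on leaving out single tumors. Pubertal HFD had 2, and 79 without the 5 arrays; onset had 30, from 0 with the slide block to more than 3 times as many with regimen as a covariate and 0 to 289 without single tumors; the interaction with pubertal diet had 93, from 30 to 2364 and 6 to 494 without single tumors. No paired analysis was possible because, in any comparison, at most 1 label number occurs on both sides.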
